A study of Arabidopsis thaliana with 54 samples.

Results

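The miR167 family of Arabidopsis thaliana was followed through small RNA libraries of seedlings kept in different day lengths. Its members were every mature microRNA feature whose name starts with ath-miR167 and a letter, which gave 5 features of the 286 microRNA features and 223651 named features in the deposited count table. The table names them ath-miR167a-5p_ath-miR167b (here miR167a-5p/b, 1 entry for 2 microRNAs that share a sequence), ath-miR167c-5p, ath-miR167d, ath-miR167a-3p and ath-miR167c-3p. All 5 passed the filter on low counts, as did 149 microRNA features and 8869 features in all. The libraries came from whole Columbia 0 seedlings (shoot, hypocotyl and root) grown in 12 h light and 12 h dark for 10 days and harvested on day 13. From day 11 the seedlings were held in long day with 16 h of light, in short day with 8 h of light or still in equinox day with 12 h of light, so every seedling shares the same early photoperiod and differs only in the last days. Each photoperiod was sampled at Zeitgeber times, the hours after lights on, of ZT 4, 8, 12, 16, 20 and 24 with 3 libraries each, 54 libraries in 18 groups. Whether replicates A, B and C are separate cultures is not stated in the labels, and p-values therefore reflect only how far these samples scatter, which may be technical.

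In Arabidopsis, miR167 is processed from hairpin precursors, and the strand from the 5′ arm is the one known to guide ARGONAUTE1. It pairs with the transcripts of ARF6 and ARF8, transcription factors that activate genes in response to auxin, and leads to their cleavage. Through these targets the family is known for roles in flower and ovule development and in root branching and adventitious rooting. The strand from the other arm, written 3p, is commonly degraded after processing. ARF6 and ARF8 transcripts were not analysed here, because these libraries hold small RNA of up to 40 nt.

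The mature sequences follow, as the RefSeq annotation of TAIR10.1 gives them by name, with bases 2 to 8 (the seed) in capitals. They are shown because the 3 guide-arm features differ from each other only at their ends.
miR167a-5p and miR167b: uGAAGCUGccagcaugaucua
miR167d: uGAAGCUGccagcaugaucugg
miR167c-5p: uAAGCUGCcagcaugaucuug
miR167a-3p: gAUCAUGUucgcaguuucacc
miR167c-3p: uAGGUCAUgcugguaguuucacc
MiR167a-5p/b and miR167d share the seed GAAGCUG. MiR167d has 22 nt against 21 nt and the substitution A21G, counted from the 5′ end of miR167a-5p. MiR167c-5p shares a run of 18 nt with both but starts at another base, so its seed is AAGCUGC. The sources used here do not give how reads that could belong to more than 1 of these sequences were assigned, so the division of counts among miR167a-5p/b, miR167d and miR167c-5p is uncertain. The sequence of miR167a-5p/b occurs 2 times in the genome, in MIR167a (AT3G22886) and MIR167b (AT3G63375), and each of the other mature sequences occurs 1 time.

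The hairpins that yield both arms are printed as RNA with the mature arms in capitals, since the arms are compared with each other in what follows. MIR167a lies on the plus strand at chr3:8108072-8108209 of TAIR10.1, and MIR167c (AT3G04765) on the minus strand at chr3:1306622-1306781. MIR167b, also on the plus strand, spans chr3:23406168-23406276, and MIR167d (AT1G31173) chr1:11137539-11137915 on the plus strand. None of the 4 precursor genes overlaps another annotated gene.
MIR167a: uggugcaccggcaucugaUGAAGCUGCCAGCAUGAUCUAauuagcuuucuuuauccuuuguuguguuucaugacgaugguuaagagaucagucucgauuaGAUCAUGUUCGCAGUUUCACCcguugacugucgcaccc
MIR167c: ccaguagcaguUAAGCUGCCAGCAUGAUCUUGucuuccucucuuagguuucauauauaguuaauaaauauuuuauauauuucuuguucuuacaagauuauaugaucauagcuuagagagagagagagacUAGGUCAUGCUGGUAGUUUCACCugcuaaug
The 5p and 3p arms of MIR167a are 21 nt each, while MIR167c has a 21 nt 5p arm and a 23 nt 3p arm.

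The sites of miR167 in ARF8 and ARF6 were located in the same annotation and are shown with the bases that pair with miR167a-5p in capitals.
ARF8: UAGAUCAgGCUGGCAGCUUgu
ARF6: gAGAUCAgGCUGGCAGCUUgu
Both lie in coding sequence. The ARF8 site (AT5G37020, plus strand) is at chr5:14633841-14633861 in exon 13 of 14, and the ARF6 site (AT1G30330, minus strand) at chr1:10686478-10686498 in exon 14 of 15. With miR167a-5p, 18 of 21 bases paired in ARF8 and 17 of 21 in ARF6. The sites differ by G1U, counted from the 5′ end of the site with the ARF6 base first. MiR167c-5p could pair at 17 of 21 bases of either transcript and miR167d at 17 of 22. ARF8 was the only one of 31346 genes searched with 3 or fewer mismatches to miR167a-5p, and 7 genes, ARF6 among them, had 4 or fewer. For miR167c-5p, 10 genes had 4 or fewer mismatches, ARF8 and ARF6 among them. Of these mismatches, 2 in ARF8 and 3 in ARF6 were G:U pairs. For miR167d, 7 genes other than ARF8 and ARF6 had 4 or fewer mismatches. ARF8 and ARF6 had 5 each, as part of 32 genes with 5 or fewer. Matches of this kind describe letters and do not show cleavage.

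Libraries held 13.7 to 23.3 M counts, of which 79.6% to 92.9% sat in 1 entry named genome that was left out, leaving 1.33 to 3.59 M counts. MicroRNA features took 114873 to 409911 counts and the miR167 family 995 to 5534 counts per library, 0.497% to 1.62% of the microRNA counts. Of the short-day libraries, 5 lay beyond all long-day and equinox-day libraries on the first principal component (21.7% of the variance). They are ZT 4 B, ZT 12 C, ZT 16 B, ZT 20 A and ZT 24 C. MiR167a-5p/b spanned 322 to 792 CPM (median 738) in those 5 and 292 to 1361 CPM (median 600) in the other 13 short-day libraries. MiR167c-3p spanned 189 to 282 CPM (median 239) in those 5 and 170.1 to 657 CPM (median 296) in the other 13. For both features the 5 lay within the range of the rest. Over 54 libraries, Pearson's r with the score on this component, lowest in the 5, was -0.04 for miR167a-5p/b and 0.51 for miR167c-3p. In whole seedlings, fewer cells that make a microRNA and less of it per cell cannot be told apart.

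The family was dominated by a pair of features. MiR167a-5p/b held 53.0% of all miR167 counts and miR167c-3p 36.5%, followed by miR167a-3p with 5.23%, miR167c-5p with 3.98% and miR167d with 1.28%. CPM are counts relative to the library total of the 8869 features that passed the filter, with TMM scaling. On this scale miR167a-5p/b averaged 495 ± 283 CPM, miR167c-3p 355 ± 140.2, miR167a-3p 49.2 ± 19.9, miR167c-5p 37.6 ± 18.1 and miR167d 12.0 ± 5.42 (SD, n = 54). All are 21 to 23 nt long, and whether length bears on this order was not tested. The arm features of the 2 hairpins were ordered in opposite ways. MiR167a-5p/b exceeded miR167a-3p in every library, and for MIR167c the 3p feature exceeded the 5p feature in every library. The miR167a-5p/b entry joins miR167a-5p with miR167b, which share a sequence. The order of the arms of MIR167a itself is therefore not settled. MiR167d had the fewest counts of the 5, with 9 to 103 per library.

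**Figure D1:**
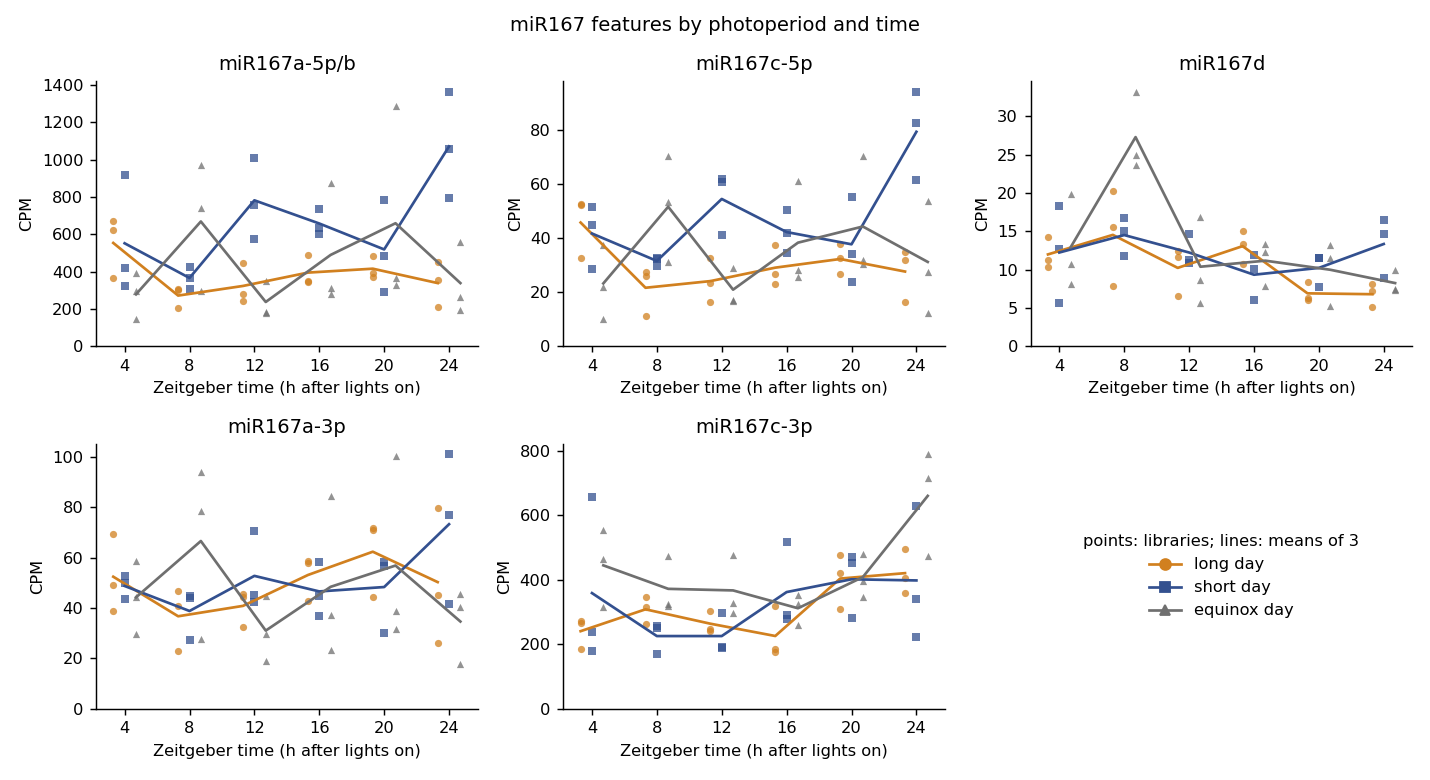
CPM of the 5 miR167 features (vertical axes, linear, each from 0) against Zeitgeber time in hours (horizontal axes), with 1 point per library, lines through the means of 3 libraries, and long day, short day and equinox day in orange, blue and grey. MiR167a-5p/b and miR167c-5p share an outline and are highest in short day at ZT 24, while miR167d peaks in equinox day at ZT 8.

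MiR167a-5p/b, the main guide strand of the family, was lower in long day than in short day. Long-day libraries spanned 206 to 669 CPM with a median of 361 CPM, against 292 to 1361 CPM with a median of 617 CPM in short-day libraries. The ranges overlapped, but 8 of the 18 short-day libraries lay above every long-day library. The mean over the 6 times was 382 ± 128 CPM in long day and 658 ± 298 CPM in short day (SD, n = 18 each), a log2 fold change of -0.74 ± 0.20 (SE, adjusted p = 0.00553), lower at 5 of 6 times. ZT 4 was the exception, with 367, 669 and 623 CPM in long day and 916, 322 and 416 CPM in short day. The call held without any 1 of the 54 libraries but not without all libraries of letter A (-0.49, adjusted p = 0.0982) or of letter B (-0.75, adjusted p = 0.0603).

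Between long day and equinox day the main guide strand did not pass the test. Equinox-day libraries spanned 146 to 1287 CPM with a median of 321 CPM, the widest range of the 3 photoperiods, and the log2 fold change of long over equinox day was -0.14 ± 0.20 (adjusted p = 0.697), higher at 3 times and lower at 3. With means of 658 ± 298 CPM in short day and 445 ± 318 CPM in equinox day, the log2 fold change of short over equinox day was 0.60 ± 0.20 (adjusted p = 0.0174), and short day was higher at 4 of 6 times. This call was lost without short-day ZT 4 A (0.45, adjusted p = 0.0678), without short-day ZT 20 A (0.50, adjusted p = 0.0597), without equinox-day ZT 20 B (0.52, adjusted p = 0.05) and without all libraries of letter B (0.44, adjusted p = 0.258). Both comparisons with equinox day use the same 18 equinox-day libraries.

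MiR167c-5p, the guide strand with the shifted seed, had the same order of photoperiods in its means at a much lower level. Long-day libraries spanned 11.2 to 52.7 CPM with a median of 29.7 CPM, against 23.8 to 94.0 CPM with a median of 43.4 CPM in short-day libraries. The ranges overlapped over much of their length, and the 6 highest of these 36 values were all from short day. The log2 fold change of long over short day was -0.65 ± 0.19 (adjusted p = 0.0103), lower at 5 of 6 times, from means of 30.1 ± 10.9 CPM in long day and 47.8 ± 19.1 CPM in short day. Without all libraries of letter A it was -0.41 (adjusted p = 0.177). Short over equinox day stood at 0.46 ± 0.19 (adjusted p = 0.0517) and long over equinox day at -0.18 ± 0.19 (adjusted p = 0.566), where equinox-day libraries averaged 34.9 ± 19.0 CPM. The short-day difference from equinox day passed the threshold in 7 of 10 other settings, among them DESeq2 with 0.52 (adjusted p = 0.0151).

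MiR167d, which shares the seed of the main guide strand, passed in none of the 3 contrasts. It averaged 10.6 ± 4.05 CPM in long day, 12.0 ± 3.58 CPM in short day and 13.3 ± 7.63 CPM in equinox day. Its log2 fold changes were -0.23 ± 0.17 for long over short day (adjusted p = 0.353), -0.27 ± 0.18 for long over equinox day (adjusted p = 0.324) and -0.04 ± 0.18 for short over equinox day (adjusted p = 0.874).

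Of the strands from the 3′ arms, miR167a-3p did not pass in any contrast. Its libraries spanned 22.8 to 79.6 CPM in long day, 27.4 to 101 CPM in short day and 17.8 to 100.2 CPM in equinox day, with medians of 45.4, 45.1 and 39.6 CPM. The log2 fold changes were -0.06 ± 0.19 for long over short day (adjusted p = 0.865), 0.10 ± 0.19 for long over equinox day (adjusted p = 0.795) and 0.15 ± 0.19 for short over equinox day (adjusted p = 0.568).

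MiR167c-3p was the one feature called lower in long day than in equinox day. Long-day libraries spanned 176 to 496 CPM with a median of 306 CPM, against 259 to 790.1 CPM with a median of 374 CPM in equinox-day libraries. The ranges overlapped, and the group mean was lower in long day at 6 of 6 times. The means were 310.2 ± 94.7 CPM in long day and 427 ± 144 CPM in equinox day, a log2 fold change of -0.46 ± 0.15 (adjusted p = 0.0317). When the genome entry was kept in the totals the value was -0.29 (adjusted p = 0.234), and it was -0.31 (adjusted p = 0.0537) in a fit of microRNA features alone. It missed the threshold without each letter in turn (-0.58 to -0.40) and without any 1 of 9 libraries, which were long-day ZT 4 C, ZT 8 C, ZT 12 A, ZT 12 C, ZT 20 C and ZT 24 A and equinox-day ZT 8 A, ZT 12 A and ZT 16 A, with adjusted p up to 0.0797. Short-day libraries spanned 170.1 to 657 CPM with a mean of 328 ± 152 CPM, and short over equinox day was -0.38 ± 0.15 (adjusted p = 0.0511). Without the 5 short-day libraries that stand apart it was -0.15 (adjusted p = 0.547).

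In all, 2 of 5 members were called between long and short day, where 25.1% of all features tested and 28.9% of microRNA features were called. Between short and equinox day 1 of 5 was called, against 32.8% of all features and 18.8% of microRNA features, and between long and equinox day 1 of 5, against 15.7% and 7.38%. These shares are near the background, so the counts alone say nothing particular about the family. The members' median log2 fold change was -0.23 for long over short day, 0.15 for short over equinox day and -0.18 for long over equinox day. Over all 8869 features these medians were -0.02, 0.03 and -0.07, and over the 149 microRNA features -0.17, 0.03 and -0.16, so the family's medians for long day were near those of microRNAs in general.

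**Figure D2:**
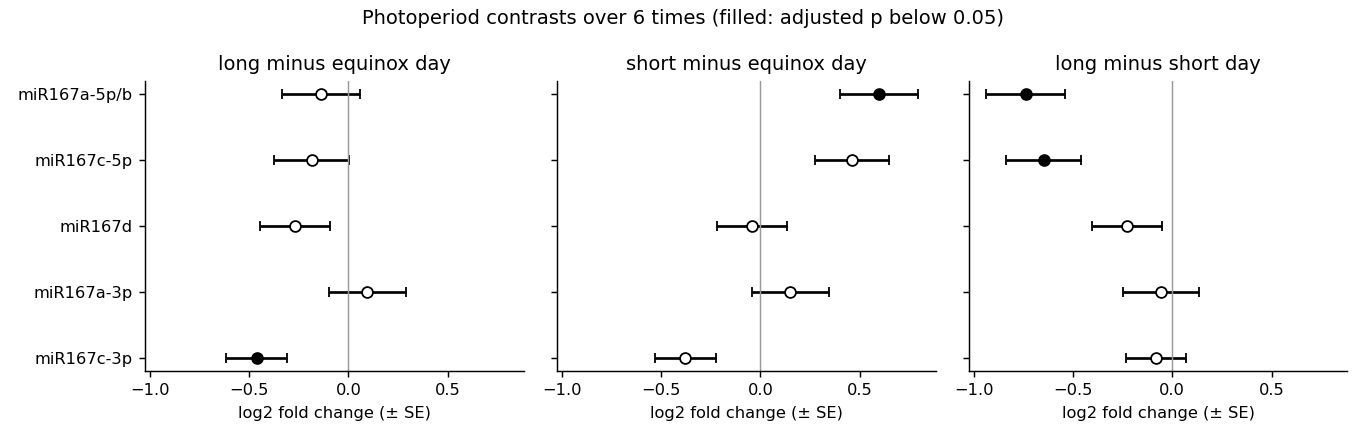
Log2 fold changes of the 5 features (points, with bars of 1 SE) for long over equinox day, short over equinox day and long over short day, each over 6 times, filled where the adjusted p was below 0.05. MiR167a-5p/b and miR167c-5p lie on the same side in each panel, and miR167c-3p lies below 0 in both panels against equinox day.

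A mean over 6 times holds more lit hours in long day, so the contrasts were repeated over ZT 4, 8, 20 and 24, which are lit (ZT 4 and 8) or dark (ZT 20 and 24) in every photoperiod. MiR167a-5p/b then stood at -0.60 ± 0.24 for long over short day (adjusted p = 0.0789) and miR167c-5p at -0.54 ± 0.23 (adjusted p = 0.0965). MiR167c-3p stood at -0.46 ± 0.19 for long over equinox day (adjusted p = 0.176). Over 6 times these values were -0.74, -0.65 and -0.46, with smaller errors. For short over equinox day, miR167a-5p/b stood at 0.36 ± 0.24 over the 4 times (adjusted p = 0.301), against 0.60 over 6. None of the 5 members passed edgeR's test in any of these 3 contrasts. For long over short day 14.5% of all features and 7.38% of microRNA features passed, for long over equinox day 6.49% and 0%, and for short over equinox day 18% and 2.68%. At an unadjusted p below 0.05 the members' counts were 2, 2 and 1 in that order of contrasts. Over all 8869 features they were 2782, 1397 and 2947, and over the 149 microRNA features 39, 26 and 18. DESeq2 called 3 for long over short day (miR167a-5p/b, miR167c-5p and miR167d), 1 for long over equinox day (miR167c-3p) and 0 for short over equinox day. DESeq2's own background was 1732 of 8869 features and 40 of 149 microRNA features for long over short day, and 650 and 13 for long over equinox day.

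At single times the largest differences of the main guide strand were at ZT 12 and ZT 24. At ZT 12, which is dark in short day and the end of light in equinox day, short-day libraries held 757, 1011 and 576 CPM, against 348, 177 and 185 CPM in equinox-day libraries. All 3 short-day values lay above all 3 equinox-day values, as did those of 24.8% of microRNA features. The log2 fold change was 1.72 ± 0.50 (adjusted p = 0.0263), the only call among the 90 tests of 5 members at 6 times in 3 contrasts. In that contrast at ZT 12, 5.98% of all features and 12.8% of microRNA features were called. Without all libraries of letter B it was 1.30 (adjusted p = 0.359), and without those of letter C 1.77 (adjusted p = 0.106). Long-day libraries at ZT 12, still lit, held 280.4, 241 and 446 CPM, all below the short-day values, as for 22.8% of microRNA features, with -1.28 ± 0.49 for long over short day (adjusted p = 0.147).

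At ZT 24, the end of the night, miR167a-5p/b reached its highest group mean. Long-day libraries held 208, 355 and 451 CPM, against 1059, 1361 and 792 CPM in short-day libraries. The groups did not overlap, as for 24.2% of microRNA features in that direction, and the log2 fold change of long over short day was -1.66 ± 0.49 (adjusted p = 0.0909). Equinox-day libraries held 557, 191 and 266 CPM, also below all short-day values, as for 12.8% of microRNA features, and short over equinox day was 1.66 ± 0.49 (adjusted p = 0.0689). MiR167c-5p had the same arrangement at ZT 24, with 16.2, 31.7 and 34.9 CPM in long day, 94.0, 82.8 and 61.4 CPM in short day, and 53.9, 12.3 and 27.3 CPM in equinox day. Its log2 fold change of long over short day was -1.52 ± 0.47 (adjusted p = 0.0955).

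Further groups of 3 stood apart with no call. Long-day values of miR167a-5p/b lay below all short-day values at ZT 8 and ZT 16 too, and those of miR167c-5p at ZT 8 and ZT 12, as did 10.1%, 17.4% and 22.8% of microRNA features at ZT 8, 16 and 12. The short-day values of miR167c-5p at ZT 12 were 60.6, 61.8 and 41.1 CPM, above the equinox-day values of 29.0, 17.0 and 16.7 CPM. Its log2 fold change there was 1.38 ± 0.47 (adjusted p = 0.0663), and 24.8% of microRNA features shared this order. At ZT 8 the long-day values of miR167c-5p, at 27.6, 26.0 and 11.2 CPM, also lay below the equinox-day values of 53.2, 70.3 and 31.3 CPM (-1.26 ± 0.47, adjusted p = 0.064), an order shared by 19.5% of microRNA features. MiR167c-3p stood at 256, 249 and 170.1 CPM in short day at ZT 8, below the equinox-day values of 472, 324 and 319 CPM and also below the long-day values of 315, 345 and 264 CPM. These orders were shared by 14.1% and 16.1% of microRNA features. Its short-day values at ZT 12 (20.8% of microRNA features) and its long-day values at ZT 4 (10.1%) also lay below those of equinox day. The long-day values of miR167d at ZT 24 lay below those of short day, as for 24.2% of microRNA features. Values of miR167a-3p overlapped in every comparison of 2 photoperiods at a time. Over all 18 contrasts at single times, 3.32% of tests of all features and 1.64% of those of microRNA features gave a call. Of the 90 tests, 18 had an unadjusted p below 0.05 in edgeR. Per contrast, 595 to 2628 of 8869 features and 1 to 48 of 149 microRNA features had such a p. DESeq2 called 7 of the 90, and its own share at single times is not given here.

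Within a photoperiod, edgeR's joint test of the 6 times called miR167d in equinox day alone (adjusted p = 0.0294), where 5.2% of all features and 4.03% of microRNA features were called. Its libraries held 8.11, 10.8 and 19.9 CPM at ZT 4, then 33.2, 23.7 and 25.0 CPM at ZT 8, the 3 highest values of any of the 54 libraries. At ZT 12 they held 16.8, 5.66 and 8.62 CPM, and at ZT 16 to ZT 24 between 5.26 and 13.3 CPM. In long day the 3 libraries at ZT 8 held 20.2, 15.5 and 7.85 CPM, and in short day 15.1, 16.7 and 11.8 CPM, all below the equinox-day values at that time. Of microRNA features, 19.5% lay in this order in long against equinox day and 14.1% in short against equinox day. The time call was lost without equinox-day ZT 8 A (adjusted p = 0.224), ZT 8 B (0.0729), ZT 8 C (0.074) or ZT 12 C (0.051), and without each letter in turn (adjusted p of 0.133 to 0.567).

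The highest values of miR167a-5p/b in equinox day stood in 4 libraries, which are named here after their values were seen. They were ZT 8 A and B (742 and 969 CPM), ZT 16 C (875 CPM) and ZT 20 A (1287 CPM), while the other replicates of those groups held 278 to 363 CPM. The same 4 libraries were the 4 highest of equinox day for miR167a-3p, with 93.8, 78.4, 84.6 and 100.2 CPM. For miR167c-5p they held 53.2, 70.3, 61.1 and 70.5 CPM and, with ZT 24 A at 53.9 CPM, were the 5 highest of equinox day. For miR167c-3p, the same libraries held 472, 324, 352 and 397 CPM, inside the range of the rest. The joint test of time for miR167a-5p/b in equinox day gave an adjusted p of 0.105 in edgeR, and in long and short day 0.626 and 0.392. DESeq2 called it in equinox day (adjusted p = 0.0379), beside miR167d. No member passed edgeR's joint test in long day or short day, where 13.3% and 3.99% of all features and 4.7% and 1.34% of microRNA features did. At an unadjusted p below 0.05 there were 0 members in long day and 1 in short day. Of 8869 features there were 2340 and 1084, and of 149 microRNA features 15 and 19. DESeq2 called 1 member in long day (miR167d, adjusted p = 0.0489) and 0 in short day, and its own shares are not given here.

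The test of whether the course over time differed between photoperiods gave an adjusted p of 0.0506 for miR167a-5p/b and 0.0883 for miR167c-5p, and 0.508 to 0.665 for the other 3. None of the 5 passed in edgeR, where 5.92% of all features and 3.36% of microRNA features were called. An unadjusted p below 0.05 was found for 2 of the 5, for 1961 of 8869 features and for 21 of 149 microRNA features. DESeq2 called 2, miR167a-5p/b (adjusted p = 0.00601) and miR167c-5p (adjusted p = 0.0108). DESeq2's own share for this test is not given here. In the steps from the last lit to the first dark sample, and from ZT 24 to ZT 4, none of 30 tests passed in edgeR or in DESeq2, where edgeR gave a call in 3.17% of the tests of all features and in 1.12% of those of microRNA features. Per step, 550 to 2553 of 8869 features and 13 to 24 of 149 microRNA features had an unadjusted p below 0.05 in edgeR. Of the 30 tests, 6 had such a p in edgeR and 9 in DESeq2, whose own share is not given here. One was miR167a-5p/b after lights off in short day, with 757, 1011 and 576 CPM at ZT 12 against 365, 423 and 308 CPM at ZT 8 (1.10 ± 0.49, adjusted p = 0.406).

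The balance between the arms of a hairpin was compared within each library, where library scaling cancels. The ratio of miR167a-5p/b to miR167a-3p counts ran from 5.45 to 12.6 with a median of 7.87 in long day, and from 6.40 to 18.9 with a median of 13.0 in short day. In log2 units the mean was 2.95 ± 0.32 in long day and 3.60 ± 0.43 in short day (SD, n = 18 each), a difference of -0.65 with the same sign at 5 of 6 times (two-sided permutation test within time, 100000 draws, p = 2e-05, adjusted over the 9 ratio tests 0.00018). In short day the ratio was also higher than in equinox day, by 0.46 from a mean of 3.14 ± 0.45 (permutation p = 0.00207, adjusted 0.00621), while long over equinox day was -0.19 (permutation p = 0.176, adjusted 0.226). The 5p entry also counts reads of miR167b, whose partner arm is not among the 5 features. Over ZT 4, 8, 20 and 24 alone the differences were -0.50 for long minus short day (adjusted p = 0.0727) and 0.33 for short minus equinox day (adjusted p = 0.229). Leaving out letter A gave adjusted p of 0.0574 for both, and leaving out letter C gave 0.38 for short minus equinox day (adjusted p = 0.0822).

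The ratio of miR167c-5p to miR167c-3p comes from 1 hairpin. It ran from 0.0432 to 0.287 with a median of 0.0888 in long day, from 0.0512 to 0.324 with a median of 0.162 in short day, and from 0.0265 to 0.218 with a median of 0.0684 in equinox day. The log2 difference was 1.00 for short minus equinox day (permutation p = 0.00144, adjusted 0.00621, higher at 5 of 6 times) and -0.65 for long minus short day (permutation p = 0.0132, adjusted 0.0296, lower at 4 of 6 times). For long minus equinox day it was 0.35 (permutation p = 0.155, adjusted 0.226). The short minus equinox day call was lost without letter A (0.99, adjusted p = 0.0574). The long minus short day call was lost without each letter in turn (adjusted p of 0.0532 to 0.246), with a replicate block (adjusted p = 0.102) and without the 5 short-day libraries that stand apart (-0.55, adjusted p = 0.112). Over ZT 4, 8, 20 and 24 alone, short minus equinox day was 0.96 (adjusted p = 0.0765) and long minus short day -0.64 (adjusted p = 0.185).

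The ratio of the 2 guide strands to each other, miR167a-5p/b to miR167c-5p, had medians of 12.8 in long day, 13.0 in short day and 11.6 in equinox day. No difference passed. The log2 differences were -0.05 for long minus short day (permutation p = 0.562, adjusted 0.562), 0.15 for short minus equinox day (permutation p = 0.147, adjusted 0.226) and 0.10 for long minus equinox day (permutation p = 0.271, adjusted 0.305).

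**Figure D3:**
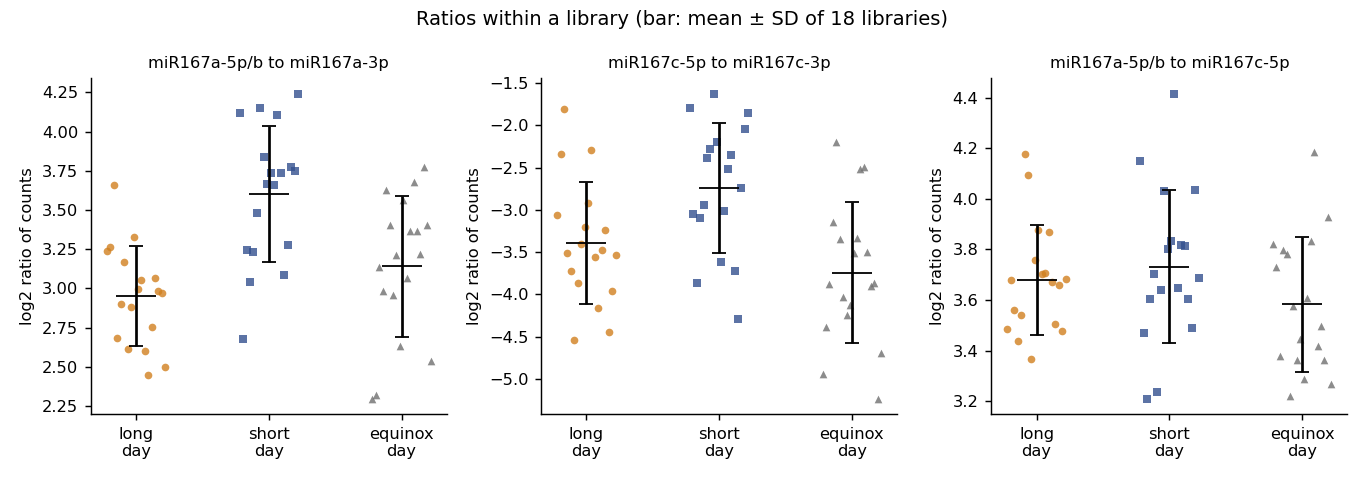
Log2 ratios of counts (vertical axes) of miR167a-5p/b to miR167a-3p, miR167c-5p to miR167c-3p and miR167a-5p/b to miR167c-5p in long-day, short-day and equinox-day libraries (1 point each), with the mean and SD of 18 libraries. Both 5p-to-3p ratios are highest in short day, while the ratio between the guide strands has means of 3.68, 3.73 and 3.58.

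Across the 18 group means of log2 CPM, miR167a-5p/b and miR167c-5p followed each other more closely than their own partner arms, while miR167d followed neither closely. Pearson's r of miR167a-5p/b was 0.98 with miR167c-5p, 0.78 with miR167a-3p, 0.26 with miR167d and -0.20 with miR167c-3p. That of miR167c-5p was 0.30 with miR167d and -0.17 with miR167c-3p. Among the deviations of the 54 libraries from their group means, r was 0.89 with miR167c-5p, 0.83 with miR167a-3p, 0.50 with miR167d and 0.13 with miR167c-3p. These points share library and scaling, and reads of the guide strands may be shared, so the values are descriptions.

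By the same measure, the features outside the family most like miR167a-5p/b were miR173-5p, which triggers secondary siRNAs from TAS transcripts (r = 0.99), miR396a-5p, which targets growth-regulating factors (0.98), and miR394a/b-5p, which targets the F-box gene LCR (0.98). For miR167c-5p they were miR173-5p (0.98), miR396a-5p (0.96) and miR822-5p (0.96). None of these has a seed of the family, as the mature sequence of the nearest one shows.
miR173-5p: uUCGCUUGcagagagaaaucac
MiR173-5p averaged 96.0 ± 33.8 CPM in long day, 180.0 ± 80.7 CPM in short day and 115 ± 88.4 CPM in equinox day. Its log2 fold changes were -0.86 ± 0.20 for long over short day (adjusted p = 0.0017) and 0.71 ± 0.20 for short over equinox day (adjusted p = 0.0063), against -0.74 and 0.60 for miR167a-5p/b. MiR173-5p was picked for its likeness over the same 18 group means, so near fold changes follow from that choice. Among deviations within groups, r between miR173-5p and miR167a-5p/b was 0.97 over 54 libraries, so the likeness was present between replicates too.

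The other members had other neighbours. For miR167c-3p these were miR166-3p, a regulator of HD-ZIP III factors (r = 0.91), its relative miR165a-3p/b (0.89) and miR843 (0.85). MiR166-3p held 4555 ± 1214 CPM in long day and 6299 ± 1398 CPM in equinox day (-0.47 ± 0.13, adjusted p = 0.00615). This is about the size of the change of miR167c-3p, which follows from picking neighbours by the same group means. For miR167d they were miR157a/b/c-5p, a regulator of SPL factors (0.72), miR168-5p, which targets ARGONAUTE1 (0.70), and miR157a/b-3p (0.70). For miR167a-3p they were miR164a/b-5p, which targets NAC factors (0.81), miR824-3p (0.80) and miR837-3p (0.79). The share of microRNAs in the counts outside the genome entry correlated with miR167a-5p/b at 0.47, with miR167c-5p at 0.48, with miR167a-3p at 0.42, with miR167c-3p at 0.55 and with miR167d at 0.23 over 54 libraries. That share had medians of 9.74% in long day, 9.67% in short day and 10.4% in equinox day, and its part in the results was not tested.

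**Figure D4:**
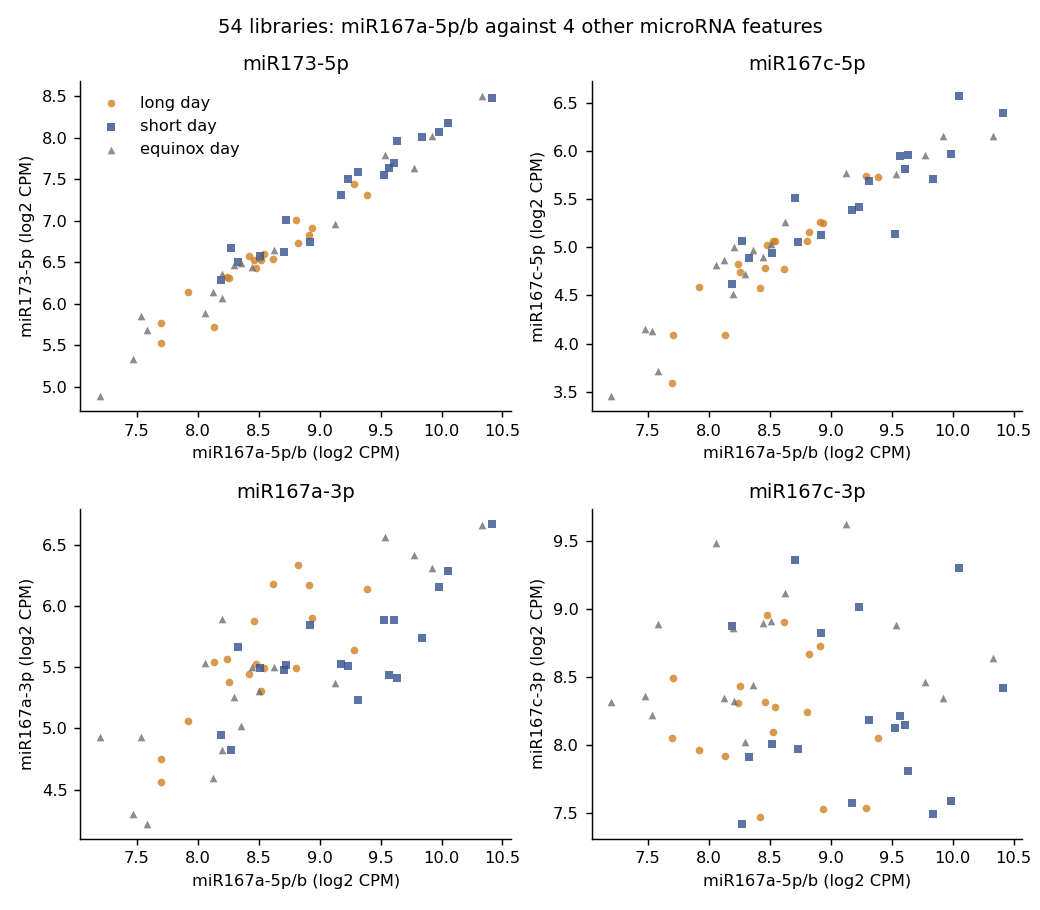
Log2 CPM of miR167a-5p/b (horizontal axes) against miR173-5p, miR167c-5p, miR167a-3p and miR167c-3p (vertical axes) in 54 libraries coloured by photoperiod. The points lie near a line for miR173-5p and miR167c-5p, scatter more for miR167a-3p, and show no line for miR167c-3p.

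Other microRNAs of the auxin pathway were read from a list of the families miR160, miR164, miR390, miR393 and miR847, which target ARF, NAC, TAS3, auxin receptor and IAA28 transcripts. All 14 of its features in the table passed the filter. Between long and short day 1 was higher and 4 were lower, against 10.8% higher and 14.4% lower of all features. Of 149 microRNA features, 12 were higher and 31 lower. The list's median log2 fold change was -0.14, against -0.02 over all features and -0.17 over microRNA features. The count depends on the setting, with 1 higher and 1 lower when the genome entry was kept in the totals, 1 and 0 with no filter and 4 and 4 with microRNA features alone. Of all microRNA features, these settings in turn called 12 and 17 of 150, 5 and 12 of 286, and 32 and 37 of 145. Without letters A, B and C in turn, 1 was higher each time and 0, 1 and 2 were lower. The 4 with the largest changes were miR390b-3p, the partner arm of the TAS3 trigger (0.81 ± 0.18, adjusted p = 0.000864), miR390a/b-5p, the trigger itself (-0.61 ± 0.17, adjusted p = 0.00596), miR160c-3p (-0.55 ± 0.17, adjusted p = 0.0142) and miR393a-3p (-0.48 ± 0.16, adjusted p = 0.0226). The fifth was miR160a/b/c-5p, which targets ARF10, ARF16 and ARF17 (-0.45 ± 0.17, adjusted p = 0.0425). Between short and equinox day, where 32.8% of all features and 18.8% of microRNA features were called, 0 of the list were higher and 1 was lower. It was miR390b-3p (-0.52 ± 0.18, adjusted p = 0.0206), and the list's median was 0.09 against 0.03 over all features. Here DESeq2, its size factors in edgeR and the 1 CPM filter each gave 2 higher and 1 lower. MicroRNA features alone gave 4 and 2, and the fit without the 5 short-day libraries that stand apart 2 and 0. Of all microRNA features, DESeq2 called 22 higher and 18 lower of 149, and its size factors 21 and 12. The 1 CPM filter called 20 and 10 of 151. MicroRNA features alone called 33 and 28 of 145, and the fit without the 5 libraries 19 and 2 of 151. With no filter, with genome totals, without letter A and without letter C, 0 of the list were higher or lower. Between long and equinox day none passed in the main edgeR fit, with a median of -0.10 against -0.07 over all features and -0.16 over microRNA features. DESeq2, its size factors in edgeR and the genome entry's share as covariate each gave 1 lower, and microRNA features alone 1 higher. Leaving out equinox-day ZT 24 B or long-day ZT 24 B also gave 1 lower. Of all microRNA features, DESeq2 called 3 higher and 17 lower of 149, its size factors 3 and 14, and the covariate 3 and 24. MicroRNA features alone called 11 and 3 of 145.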

How the data were processed

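Small RNA libraries of 54 seedling samples were deposited as 1 table of raw counts per feature, with 1 column per library. The authors' tools were cutadapt 3.4, Bowtie2 2.5.1 and SAMtools, per the submitters' processing notes, which are held here without the tools' roles. The sources used here do not give their settings, the genome build, the counting rule or the treatment of reads that map to more than 1 place. Entries that join names, such as miR167a-5p and miR167b, were used as deposited. The entry named genome, with 86.1% of the counts, stayed out of totals and tests. No 2 libraries held identical counts.

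Features were filtered with filterByExpr of edgeR (minimum count 10, minimum total 15), scaled by TMM and fitted with a quasi-likelihood model of 18 groups (edgeR 4.0.16, R 4.3.3), which left 36 residual degrees of freedom and a typical coefficient of variation of 0.456. Contrasts were taken over 6 times, over the 4 times in the same light phase, at single times, at lights off and from night to morning, with joint tests of time and of photoperiod by time. P-values were adjusted by Benjamini-Hochberg over the 8869 features of each contrast, and a feature was called at an adjusted p below 0.05. Fold changes are log2, with model-based SE. Ratios used counts with a pseudocount of 0.5 and a two-sided permutation test within times (100000 draws). The edgeR and ratio tests were tested on simulated data.

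All members were named, with the 3 features most like each by Pearson's r over 18 group means among tested microRNAs, and up to 4 called features of the auxin list by size of change. The members and lists were chosen with earlier results of these data known. Sequences and coordinates are those of RefSeq TAIR10.1, matched by name (Python 3.11.15). Alternatives were other scalings, filters, a replicate block, left-out libraries, a covariate and DESeq2 1.42.0.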

Additional observations from a re-analysis of the deposited data

How the results depend on the processing

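Under the alternatives no call turned its direction. Photoperiod contrasts of miR167a-5p/b over 6 times kept their calls under all 10 other settings. For miR167c-3p, long over equinox day lost its call with totals that include the genome entry (-0.29), with microRNA features alone (-0.31) and with no filter (-0.40), and short over equinox day gained one with no TMM factors (-0.38), microRNA features alone (-0.38), the genome entry's share as covariate (-0.43) and DESeq2 (-0.34), within a range of -0.43 to -0.15 over the 10 settings. For miR167c-5p, long over short day lost its call with no filter (-0.65), and short over equinox day gained one with DESeq2's size factors in edgeR (0.52), no TMM factors (0.51), genome totals (0.55), microRNA features alone (0.56), a filter at 1 CPM in 27 libraries (0.53), without the 5 short-day libraries that stand apart (0.56) and with DESeq2 (0.52). The runs without those libraries and with the covariate were chosen after seeing the data. The cause was not tested, save that with no filter 223651 features enter the adjustment.

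Over ZT 4, 8, 20 and 24, calls were gained for long over short day by miR167a-5p/b with DESeq2's size factors (-0.74), microRNA features alone (-0.48), the 1 CPM filter (-0.72) and DESeq2 (-0.74), by miR167c-5p with DESeq2's size factors (-0.68), microRNA features alone (-0.42) and DESeq2 (-0.68), and by miR167d with DESeq2 (-0.52). For long over equinox day miR167c-3p gained one with DESeq2 (-0.52). For short over equinox day, microRNA features alone gave calls for miR167a-5p/b (0.54), miR167c-5p (0.47) and miR167c-3p (-0.42), and the covariate for miR167c-3p (-0.50). These settings called more microRNAs at large. For short over equinox day, microRNA features alone called 23 of 145 and the covariate 9 of 149, against 4 of 149 with TMM. For long over short day the main fit called 11 of 149 microRNA features. There DESeq2's size factors called 27 of 149, microRNA features alone 34 of 145, the 1 CPM filter 19 of 151 and DESeq2 40 of 149.

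Joint tests moved to these adjusted p. For photoperiod by time, miR167a-5p/b had 0.0411 with DESeq2's size factors, 0.0067 with no TMM factors, 0.00349 with microRNA features alone, 0.00147 with no filter, 0.0267 without the 5 libraries and 0.00601 with DESeq2. MiR167c-5p had 0.00415 with no TMM factors, 0.000947 with microRNA features alone and 0.0108 with DESeq2, and miR167c-3p 0.0416 with microRNA features alone. For time in equinox day, miR167a-5p/b had 0.0173 with no TMM factors, 0.00932 with microRNA features alone, 0.0300 with no filter and 0.0379 with DESeq2, miR167c-5p 0.0226 and 0.0138 under the first 2 of these, and miR167d 1.0 with no filter. For time in long day, miR167c-3p had 0.0262 with no TMM factors and 0.0129 with microRNA features alone, and miR167d 0.0113 with microRNA features alone and 0.0489 with DESeq2.

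For ratios, the 4 times alone gave -0.50 and 0.33 for miR167a-5p/b to miR167a-3p (long minus short, short minus equinox) and -0.64 and 0.96 for miR167c-5p to miR167c-3p. For the last ratio, long minus short day was -0.55 without the 5 libraries.

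Letters do not pair the libraries by the check of deviations from group means (mean r = -0.0098 over 459 pairs of 1 letter). The replicate block changed no member's call in edgeR. With the replicate block, long over short day was -0.71 for miR167a-5p/b, and the ratio of miR167c-5p to miR167c-3p lost its call (-0.65, adjusted p = 0.102).

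Leaving out 1 letter gave -0.99 to -0.49 for miR167a-5p/b and -0.80 to -0.41 for miR167c-5p in long over short day. It gave 0.44 to 0.83 for miR167a-5p/b, 0.38 to 0.63 for miR167c-5p and -0.48 to -0.32 for miR167c-3p in short over equinox day, and -0.58 to -0.40 for miR167c-3p in long over equinox day. Over the 4 times miR167a-5p/b ran from -0.93 to -0.27 for long over short day. The adjusted p of photoperiod by time was 0.0333 to 0.71 for miR167a-5p/b and 0.126 to 0.77 for miR167c-5p, and that of time in equinox day 0.0647 to 0.665 for miR167a-5p/b and 0.133 to 0.567 for miR167d. The ratio of miR167a-5p/b to miR167a-3p ran from -0.77 to -0.51 and from 0.38 to 0.59, and that of miR167c-5p to miR167c-3p from -0.74 to -0.46 and from 0.95 to 1.05.

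Leaving out 1 of 54 libraries gave 0.45 to 0.72 for miR167a-5p/b, 0.37 to 0.56 for miR167c-5p and -0.54 to -0.29 for miR167c-3p in short over equinox day, and -0.56 to -0.41 for miR167c-3p in long over equinox day. Over the 4 times it gave -0.75 to -0.51 for miR167a-5p/b in long over short day and -0.66 to -0.34 for miR167c-3p in short over equinox day. The adjusted p of photoperiod by time ran from 0.0128 to 0.124 for miR167a-5p/b and from 0.0274 to 0.196 for miR167c-5p. The adjusted p of time in equinox day ran from 0.0273 to 0.206 for miR167a-5p/b and from 0.0157 to 0.224 for miR167d.

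Totals with the genome entry gave 1138 higher and 264 lower features for long over equinox day, against 769 and 619 with TMM, and moved the median log2 fold change of all features to 0.13, against -0.07. For long over short day they gave 1172 and 887, DESeq2 gave 852 and 1750, and DESeq2's size factors 809 and 1595, against 955 and 1274. Without the 5 short-day libraries, 1065 features were called for long over short day, against 2229. MiR167d has the fewest counts, 9 to 103 a library, and whether depth limits its tests was not tested.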
